A study of Mus musculus with 6 samples.

Results

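The major histocompatibility complex (MHC) class II genes are described here with the factor that switches them on, in 3 subsets of endothelial cells (ECs) of the mouse thymus. They are 7 genes of the 24457 genes on chromosomes in the deposited tables, taken by their symbols and not by their values: Cd74, H2-Aa, H2-Ab1, H2-Eb1, H2-DMa, H2-DMb1 and Ciita. All 7 passed the filter on low values that left 11717 genes for testing. Thymi of wildtype female C57BL/6 mice of 4 to 6 weeks were digested, and the CD31+CD45-EpCAM- ECs were split by Ly6C and P-selectin (Selp). RNA was sequenced from 2 libraries each of type I (Ly6C+Selp-), type II (Ly6C+Selp+) and type III (Ly6C-Selp+) ECs, 6 in all. All 3 subsets share the strain, genotype, sex, age range and CD31+CD45-EpCAM- gate, and are defined by the 2 further surface markers. The purity of each sort was stated as at least 90%, and the labels do not say whether the replicates came from separate mice or from pools, so the p-values measure the spread between these libraries, which may be technical.

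Class II molecules present peptides from the endosomal pathway to CD4 T cells. An alpha and a beta chain pair in the endoplasmic reticulum and are held there by the invariant chain, which the cathepsins later degrade, and the H2-M dimer then exchanges the last invariant chain fragment for a peptide. In the thymus, class II on epithelial cells and dendritic cells (DCs) takes part in the selection of CD4 T cells, while B cells and macrophages also carry it and ECs can express it under interferon gamma. The class II transactivator, Ciita, does not bind DNA itself but is recruited to an assembly of the RFX, CREB and NF-Y factors on a shared promoter module, the X and Y boxes.

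That module is shown because 3 of the genes share it. RefSeq promoter windows, 250 bases before to 50 after a start site on GRCm38.p6, were found for 4 of the 7 genes, H2-Aa, H2-Eb1, H2-DMa and H2-DMb1. The 3 windows that held the Y box in the orientation of the gene are H2-Aa, minus strand (chr17:34287861-34287912), H2-Eb1, plus strand (chr17:34305768-34305818), and H2-DMb1, plus strand (chr17:34153089-34153140). They are given 5′ to 3′ with the GNAAC core of the X box and the TGATTGG of the Y box in capitals:
H2-Aa: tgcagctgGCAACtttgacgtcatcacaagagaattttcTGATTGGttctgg
H2-Eb1: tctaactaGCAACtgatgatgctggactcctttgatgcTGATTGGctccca
H2-DMb1: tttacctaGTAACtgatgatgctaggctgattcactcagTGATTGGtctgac
Between the core and the Y box lie 26 bases in H2-Aa, 25 in H2-Eb1 and 26 in H2-DMb1, and the Y box ends 43, 54 and 56 bases before the start site in that order. TGATTGG on either strand was present in 7.82% of all 32851 windows, and GNAAC followed by TGATTGG after 15 to 35 bases, on either strand, in 0.569%. The letters and the spacing were chosen after these sequences had been seen. The 2 windows of H2-DMa held neither. Among the other genes of the pathway, the same arrangement was found in the windows of H2-Oa, H2-Ob and H2-Eb2, with 26, 23 and 25 bases between the core and the Y box. A match of letters describes a window and is not a measured binding site.

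Expression is given as FPKM, fragments scaled by transcript length and by the mapped fragments of the library, so that levels of different genes can be set side by side. The fragments read back from the deposited intervals summed to between 1452476 and 2423171 per library, and 3 fragments amounted to 0.32 to 0.55 FPKM for the median gene. The summed FPKM ran from 221458 to 300932 and was not made equal between libraries. The labelled cell type was checked against its markers: Pecam1 (CD31) ran from 496 to 867 FPKM, all 8 endothelial markers were above 1 FPKM in every library, and Ptprc (CD45), the gene of the marker that the sort removed, was at 2.88 to 28.9 FPKM. Replicate 1 had the higher summed FPKM and the higher Ptprc in each subset. In bulk RNA, fewer cells of a type and less RNA per cell cannot be told apart.

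Cd74, the invariant chain, was the most abundant of the 7 genes in every library. It was measured at 244 and 78.9 FPKM in replicates 1 and 2 of type I ECs, 217 and 148 FPKM in type II ECs, and 536 and 227 FPKM in type III ECs. Its mean was 161 ± 116 FPKM (SD, n = 2), 183 ± 48.8 and 381 ± 218 in the same order. The gene, on chromosome 18 with Mir5107 inside its locus, had its highest value in replicate 1 of type III ECs and its lowest in replicate 2 of type I ECs, while replicate 1 of type I ECs lay above replicate 2 of type III ECs. The estimated fragments behind these values were 295 to 922, so counting error was small beside the difference between replicates.

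The 2 chains of I-A, the class II molecule that C57BL/6 mice carry at the surface, had the same highest and lowest libraries as Cd74. H2-Aa, the alpha chain (mm9, chr17:34419696-34424716), was at 89.8 and 24.8 FPKM in type I ECs, 80.4 and 47.9 in type II ECs, and 232 and 79.0 in type III ECs. H2-Ab1, the beta chain (chr17:34400172-34406363), was at 134 and 44.1 FPKM, 107 and 67.2 FPKM, and 292 and 119 FPKM in the same order. For both chains replicate 1 of type III ECs stood above the 5 other libraries, and the values of the other libraries interleaved between subsets. H2-Aa and H2-Ab1 are neighbours on opposite strands, and the GENCODE model of H2-Aa overlaps the locus of H2-Ab1. Whether reads were counted by strand was not stated, so reads in the shared stretch cannot be assigned between them here.

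H2-Eb1 encodes the beta chain of I-E (chr17:34442812-34453619). Its values were 67.3 and 18.6 FPKM in type I ECs, 58.4 and 29.0 in type II ECs, and 177 and 65.7 in type III ECs. C57BL/6 mice lack a working alpha chain for I-E, so that this transcript is not expected to reach the surface as a dimer with it, and the pseudogene row H2-Ea-ps was listed at 0 in all 6 libraries. Cd74, H2-Ab1, H2-Aa and H2-Eb1 kept this order of levels, per length, in every library.

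The H2-M dimer was expressed at a lower level. H2-DMa, its alpha chain (chr17:34259777-34276046), was at 6.79 and 3.68 FPKM in type I ECs, 10.4 and 6.47 in type II ECs, and 12.0 and 7.99 in type III ECs. Both type III libraries lay above both type I libraries, and those of the type II ECs overlapped both other subsets. A pseudogene, Gm20493, overlaps H2-DMa on the other strand. H2-DMb1, a beta chain (chr17:34290136-34297174), was at 10.6 and 3.31 FPKM, 7.05 and 9.97 FPKM, and 14.1 and 10.5 FPKM in the same order. Both type III libraries were above both type II libraries, whereas replicate 1 of type I ECs was just above replicate 2 of type III ECs. H2-DMb2 is a near copy of H2-DMb1, and reads shared by the pair make both values uncertain. These values rest on 14 to 44 fragments per library.

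Ciita was the least abundant of the 7 (chr16:10480165-10527657). It was at 1.63 and 1.25 FPKM in type I ECs, 1.54 and 1.79 FPKM in type II ECs, and 5.74 and 2.11 FPKM in type III ECs. Both type III libraries were above the other 4, replicate 2 narrowly, and they stayed so under the 3 other scalings. All values were above the level that 3 fragments correspond to, with 15 to 63 fragments behind them. Between type I and type II ECs the transactivator differed by less than its spread over replicates.

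**Figure D1:**
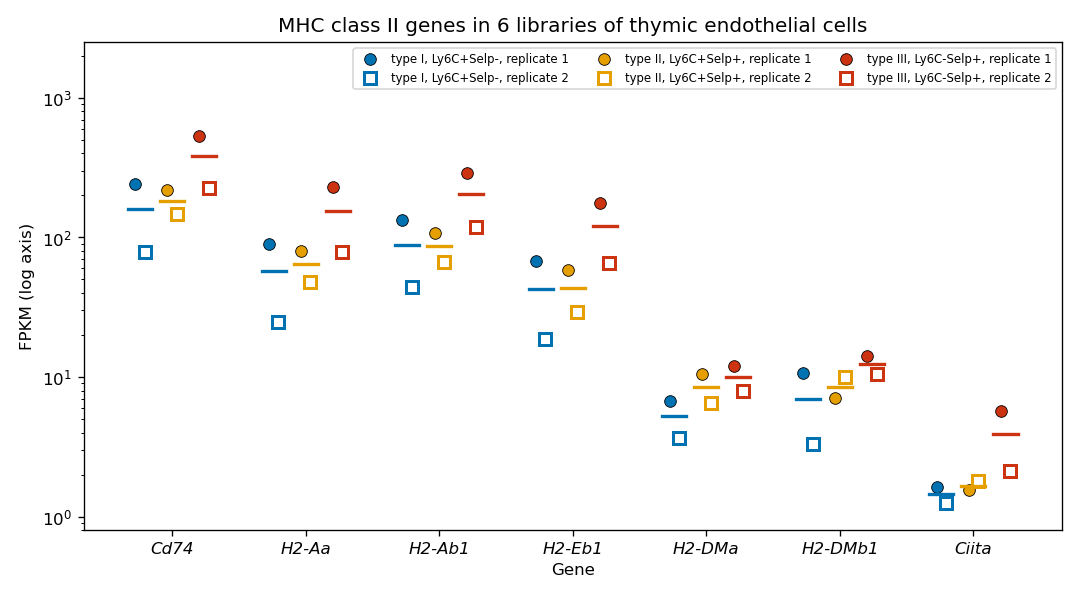
Each gene's FPKM (log axis) in the 6 libraries, with filled circles for replicate 1, open squares for replicate 2 and a bar for the mean of each subset (n = 2). Replicate 1 of type III ECs is the highest library for all 7 genes on this deposited scale, at 536 FPKM for Cd74 and 5.74 for Ciita, and replicate 2 of type I ECs the lowest.

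Type III (Ly6C-Selp+) ECs, which the study describes as the portal cells of progenitor entry, were compared with the type I ECs to ask what marks them. The limma estimates of all 7 class II genes were above 0 in type III ECs, as deposited and under 3 other scalings, and none of them passed the test. On the log2(FPKM + 1) scale the difference was 1.57 for H2-Eb1 (SE 0.63, 95% interval 0.15 to 3.00), 1.496 for H2-Aa (SE 0.63), 1.32 for Cd74 (SE 0.54) and 1.27 for H2-Ab1 (SE 0.55). It was 0.91 for Ciita (SE 0.43), 0.90 for H2-DMb1 (SE 0.45) and 0.84 for H2-DMa (SE 0.38), and the intervals of these 3 reached below 0. The adjusted p from limma, over all genes tested, lay between 0.29 for H2-Eb1 and 0.448 for H2-DMb1. Thus 0 of 7 were called at an adjusted p of 0.05, where 4.14% of all genes tested were. With the replicate number as a block, limma called 4 of the 7 (Cd74, H2-Aa, H2-Ab1 and H2-Eb1, adjusted p 0.00342 to 0.0135), and what a number stands for is not stated. The study's own Cuffdiff comparison of these subsets lists Cd74, H2-Aa, H2-Ab1 and H2-Eb1 as differentially expressed. It does not list Ciita, H2-DMa or H2-DMb1, and its FPKM values differ from those deposited. Without adjustment, limma gave 4 of the 7 a p under 0.05 (Cd74, H2-Aa, H2-Ab1 and H2-Eb1), as it did 1648 of the 11717 genes, or 14.1%. The median difference of the 7 was 1.27, beside 0.08 over all genes tested, and 1.99% of the genes tested had a larger difference than H2-Eb1. With 2 libraries against 2, an exact permutation test of 1 gene cannot give a two-sided p below 0.33. The size of the difference rested on single libraries: with 1 left out it ran from 0.52 to 2.13 for Cd74, 0.59 to 2.41 for H2-Aa, 0.48 to 2.06 for H2-Ab1, 0.67 to 2.48 for H2-Eb1, 0.47 to 1.21 for H2-DMa and 0.18 to 1.61 for H2-DMb1, each lowest without replicate 2 and highest without replicate 1 of type I ECs. Ciita ran from 0.35 without replicate 1 to 1.47 without replicate 2 of type III ECs.

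Within replicate number 1, all 7 genes were higher in type III than in type I ECs, and within number 2 again all 7, where 39.5% of the genes tested were higher within both numbers. The FPKM ratio of Cd74 was 2.20 within number 1 and 2.87 within number 2. That of H2-Eb1 was 2.63 and 3.53, that of H2-Aa 2.58 and 3.19, and that of H2-Ab1 2.18 and 2.71. H2-DMa gave 1.76 and 2.17, H2-DMb1 1.33 and 3.18, and Ciita 3.53 and 1.68, so H2-DMb1 and Ciita differed most between the numbers. These ratios are descriptions, since the labels tie a number to no mouse, litter or day. Both type III libraries exceeded both type I libraries for 2 of the 7, H2-DMa and Ciita, where 20.7% of the genes tested did so. That count depends on the scale between libraries: it was 5 of 7 with the summed FPKM made equal, 5 after quantile normalization and 7 with median-of-ratios scaling. The share of all genes was not computed under these scalings, so these counts have no share to be set beside.

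Type II ECs did not differ detectably from type I ECs in any of the 7 genes. The limma differences ran from 0.13 for Ciita to 0.61 for H2-DMa (95% interval -0.24 to 1.47), with adjusted p between 0.833 and 0.997. None of the 7 was called, where 0.393% of the genes tested were, and limma gave none of them an unadjusted p under 0.05, beside 877 of all genes, or 7.48%. The interval for H2-Eb1, -1.22 to 1.63, shows how large a difference in either direction these libraries could have missed. Within number 1 only H2-DMa was higher in type II ECs, and within number 2 all 7 were, so 1 of 7 was higher within both numbers, where 24.7% of the genes tested were. With equal summed FPKM or median-of-ratios scaling 5 of 7 were higher within number 1, and 3 after quantile normalization. For 0 of 7 genes did both type II libraries lie above both type I libraries, where 13% of the genes tested did, and for H2-DMa and Ciita they did under each of the 3 other scalings. The shares of all genes under the other scalings were not computed.

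Type III ECs were also set against type II ECs, with which they share P-selectin. This comparison uses the same type III libraries as the one above, so the 2 are not independent. The difference was 1.37 for H2-Eb1, 1.13 for H2-Ab1, 1.11 for H2-Aa and 0.95 for Cd74, and it was 0.78 for Ciita, 0.49 for H2-DMb1 and 0.22 for H2-DMa. The adjusted p from limma ran from 0.524 to 0.899 and none of the 7 was called, where 0.222% of the genes tested were. With the replicate number as a block, limma called H2-Eb1 (adjusted p 0.0267). Limma gave none of the 7 an unadjusted p under 0.05, beside 1170 of all genes, or 9.99%. All 7 were higher within both numbers, as were 42.5% of the genes tested, although with equal summed FPKM H2-DMa was not within number 1 and H2-DMb1 was not within number 2, the latter also under the other 2 scalings. The median of all genes was itself 0.14 in this comparison and moved to -0.04, 0.01 and 0.00 with equal summed FPKM, median-of-ratios scaling and quantile normalization. The median of the 7 was 0.95 as deposited, and 0.74, 0.80 and 0.68 under these scalings. Both type III libraries lay above both type II libraries for 5 of 7 genes, all but H2-Aa and H2-DMa, where 27.7% of the genes tested did, and for 3 to 5 of 7 under the other scalings. The share of all genes under the other scalings was not computed.

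**Figure D2:**
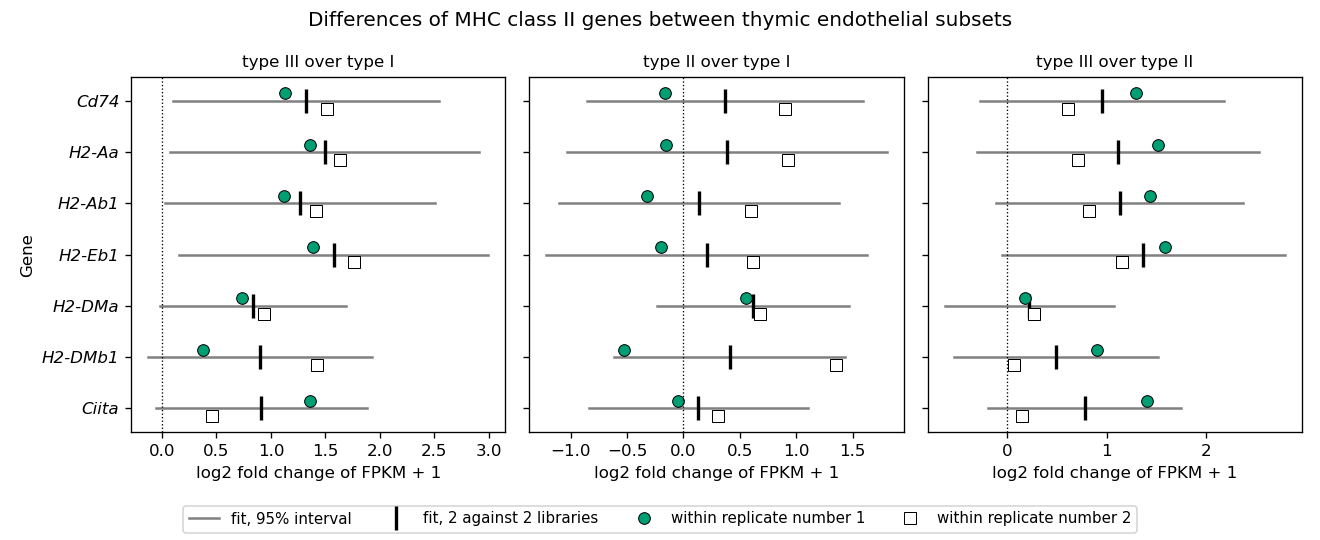
Difference of each class II gene in the 3 comparisons, as the log2 fold change of FPKM + 1. The bar and grey line are the limma estimate and its 95% interval, the circle and square the difference within replicate numbers 1 and 2. Between type III and type I ECs the estimates lie from 0.84 to 1.57 and all 14 within-number points are above 0, while for type II against type I ECs 6 of the 7 circles are below 0.

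Replicates of type I and of type III ECs differed in the chain genes by about as much as these subsets did. In type I ECs, replicate 1 exceeded replicate 2 by 3.09-fold for Cd74, 3.63-fold for H2-Aa, 3.04-fold for H2-Ab1 and 3.62-fold for H2-Eb1. The signed log2 difference, replicate 1 minus replicate 2, was above that of 98.5% to 99.2% of the genes tested. Genes with a gap in the other direction count as below in this ranking. In type III ECs the same 4 genes differed 2.36- to 2.93-fold, and in type II ECs 1.46- to 2.02-fold. Ciita differed 1.30-fold in type I ECs and 2.73-fold in type III ECs, and it was lower in replicate 1 than in replicate 2 of type II ECs. Ptprc differed 3.68-, 1.35- and 3.69-fold between the replicates of type I, type II and type III ECs, so like the chain genes it had its smallest gap in type II ECs. The median log2 gap over all genes tested was also smallest there, at 0.39, 0.14 and 0.18 in the same order.

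The chain genes moved through the 6 libraries in a narrow proportion to each other. H2-Ab1 was 45.3% to 55.9% of the FPKM of Cd74, a 1.23-fold range, while Cd74 and H2-Ab1 themselves ranged 6.79-fold and 6.62-fold. H2-Aa was 31.4% to 43.3% of Cd74 and H2-Eb1 19.5% to 33.1%. H2-DMa ranged 3.25-fold over the libraries, H2-DMb1 4.26-fold and Ciita 4.58-fold, compared with 1.75-fold for Pecam1 and 10.03-fold for Ptprc. Set against Ptprc, H2-Ab1 gave a ratio of 12.6 and 15.3 in type I ECs, 17.7 and 15.04 in type II ECs, and 10.1 and 15.3 in type III ECs, a 1.75-fold range in which type III ECs were not the highest. Against Pecam1 the same gene ranged 3.79-fold, against Cd3e of T cells 2.14-fold, against Itgax (CD11c) of DCs 3.21-fold and against Lyz2 of macrophages 3.95-fold. The ratio to Cd3e was 13.6 and 15.2 in type I, 9.18 and 11.4 in type II, and 17.9 and 19.7 in type III ECs, highest in the last. That to Pecam1 was 0.200 and 0.089, 0.146 and 0.0998, and 0.337 and 0.147 in the same order. The ratio to Itgax was highest in the type II libraries (162 and 191), and that to Lyz2 in replicate 2 of type II ECs.

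Markers of the other cells that can carry class II were present in these CD45- sorts, and most of the leukocyte markers were higher in replicate 1 than in replicate 2 of each subset, as were 7, 5 and 7 of the 7 class II genes in type I, type II and type III ECs. The median of all genes tested was also higher in replicate 1, by 0.39, 0.14 and 0.18 on the log2 scale in the same order. The summed FPKM of the 7 class II genes was 554 and 175 in type I ECs, 482 and 311 in type II ECs, and 1269 and 512 in type III ECs. The 12 leukocyte and macrophage markers summed to 378 and 77.3, 155 and 66.5, and 619 and 153 FPKM in the same order. Replicate 1 was above replicate 2 for 12, 11 and 12 of these 12 in the 3 subsets, and 11 of 12 were highest in replicate 1 of type III ECs, like the class II genes. That library also had the highest summed FPKM over all genes. Between type III and type I ECs limma called none of the 11 tested, where 4.14% of all genes tested were called. It gave 0 of the 11 an unadjusted p under 0.05, where 14.1% of all genes tested had one, and their median difference was 0.84. Of the 12, the study's own Cuffdiff comparison of type III with type I ECs lists Ptprc as differentially expressed, and not the others. Within number 2 the sums of the 2 lists parted between the Ly6C+ subsets: the class II sum was 311 FPKM in type II against 175 in type I ECs, and the leukocyte sum 66.5 against 77.3. Gene by gene, 5 of the 12 leukocyte markers were higher in type II ECs there, Ptprc among them (4.47 against 2.88 FPKM). The sums of DC, thymocyte and thymic epithelial markers were also higher in type II ECs within number 2, and that of B cell markers was lower. Gene by gene, 13 of the 15 DC markers were higher there, with Irf8, the largest in type II ECs, at 34.0 against 14.9 FPKM. The part of leukocyte RNA in the class II values was not tested.

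The 15 DC markers summed to 97.6 and 48.6 FPKM in type I ECs, 72.8 and 73.5 in type II ECs, and 176 and 111 in type III ECs. Of these sums, Irf8 gave 33.2 and 14.9, 40.4 and 34.0, and 75.1 and 62.2 FPKM in the same order, and Zbtb46 gave 7.31 to 21.9 FPKM. Both are also expressed outside DCs, so the sums do not measure DC RNA alone. Itgax was at 2.25 and 0.40 FPKM, 0.66 and 0.35 FPKM, and 3.84 and 1.96 FPKM in the same order, and Xcr1, a receptor of cross-presenting DCs, was listed at 0 in replicate 2 of type I and replicate 1 of type II ECs and was below 1 in the others. Markers listed at 0 numbered 3 in the former library and 6 in the latter, and 0 in the remaining 4. Of the 12 tested, 1 was higher in type III than in type I ECs by limma, Irf8, a transcription factor of DCs and other myeloid and B cells, by 1.57 (adjusted p 0.0433), from 33.2 and 14.9 to 75.1 and 62.2 FPKM. Limma gave 6 of the 12 an unadjusted p under 0.05, of which Irf8, Siglech, Ccl22, Ccr7 and Clec9a were higher. Of all genes tested, 14.1% had such a p and 4.14% were called. Among the 12 estimates 10 were above 0, with a median of 0.81. The call of Irf8 was lost without any 1 library other than replicate 1 of type I ECs, with an adjusted p of up to 0.251 without replicate 1 of type III ECs. Zbtb46, a factor of DCs that ECs express too, took the other direction, at 21.9 and 18.8 FPKM in type I and 7.31 and 11.8 in type III ECs (limma difference -1.05, adjusted p 0.107). Ccr7, on mature DCs and T cells, was at 22.9 and 8.89 FPKM in type III ECs and at 8.44 and 3.31 in type I ECs. Of the 15, the study's own Cuffdiff comparison of type III with type I ECs lists Irf8, Zbtb46 and Ccr7, and not the others. The part of DC RNA in the class II values was not tested.

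The 8 B cell markers summed to no more than 17.4 FPKM in any library. The 10 thymocyte markers summed to 97.1 and 25.9, 67.1 and 41.5, and 162 and 78.6 FPKM, and the 9 thymic epithelial markers to 83.6 and 25.1, 59.0 and 33.7, and 87.4 and 18.4 FPKM, in the order of subsets above. The thymocyte sums had the class II genes' highest and lowest libraries, and the epithelial sum was lowest in replicate 2 of type III ECs, where the class II sum was 512 FPKM. By limma 0 of 5 B cell, 0 of 9 thymocyte and 0 of 9 epithelial markers tested were called between type III and type I ECs, with 2, 1 and 2 of them at an unadjusted p under 0.05. Of all genes tested, 4.14% were called and 14.1% had such an unadjusted p. Among the B cell, thymocyte and epithelial markers, the study's own Cuffdiff comparison of type III with type I ECs lists Lck alone. The 6 fibroblast and mural markers summed to 111 and 138 FPKM in type III ECs, below the 185 to 457 of the other subsets, and Pdgfrb of pericytes fell by 1.85 (limma adjusted p 0.0132), a call lost without replicate 1 of type III (0.111) or of type I ECs (0.073). Of the 8 endothelial markers, which summed to 2178 to 2777 FPKM, Eng, a coreceptor for TGF-beta, rose by 1.10 (adjusted p 0.0404), and Cldn5, a tight junction protein, fell by 3.70 (adjusted p 0.000252). The call of Eng was lost under equal summed FPKM (limma adjusted p 0.0714) and without any 1 library (0.0892 to 0.242), and that of Cldn5 was kept in each. The part of these cell types in the class II values was not tested.

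**Figure D3:**
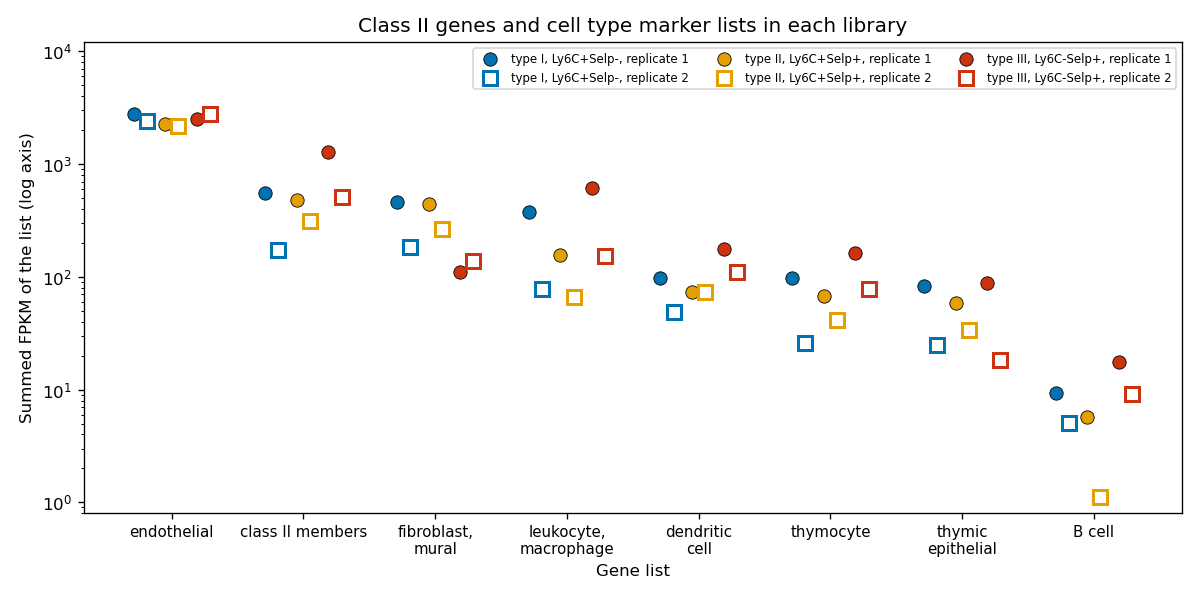
Summed FPKM (log axis) of the 7 class II genes and of 7 lists of cell type markers in each library, circles for replicate 1 and open squares for replicate 2. The endothelial sums stay within 2178 to 2777 FPKM, while the class II sums (175 to 1269) and the leukocyte and macrophage sums (66.5 to 619) both have replicate 1 above replicate 2 in each subset. The summed FPKM of all genes has the same order of replicates. The dendritic cell sum includes Irf8 and Zbtb46, which other cells express too.

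The wider class II pathway was followed in a list of 34 genes, of which 33 were in the tables and 30 were tested. Between type III and type I ECs 1 of the 30 rose and 0 fell, where 4.14% of all genes tested were called, and the median difference was 0.40. The riser was Ctsl, cathepsin L, which degrades the invariant chain in thymic epithelium. It was at 139 and 63.9 FPKM in type I ECs, 210 and 178 in type II ECs, and 462 and 374 in type III ECs, so that the 3 subsets did not overlap. Ctsl was thus among the 20.7% of the genes tested with both type III libraries above both type I libraries. The limma difference was 2.13 (SE 0.35, adjusted p 0.00946), with an adjusted p of 0.0814 without replicate 1 of type III ECs and 0.0548 with no filter on low values. Between type II and type I ECs, and between type III and type II ECs, limma called 0 of the 30, with 3 and 1 at an unadjusted p under 0.05, where 7.48% and 9.99% of all genes tested were.

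The 6 genes of antigen processing had the largest median of the groups in the list, 1.07, with all 6 estimates above 0. Limma gave 4 of them an unadjusted p under 0.05, where 14.1% of all genes tested had one, and called Ctsl alone. Of the 6, the study's own Cuffdiff comparison of type III with type I ECs lists Ctsl, Ctsd and Lgmn. Like the class II genes, all 6 were highest in replicate 1 of type III ECs and lowest in replicate 2 of type I ECs on the deposited scale. These libraries also had the highest and the lowest summed FPKM, in that order. Ctss, cathepsin S, the protease that trims the invariant chain in DCs, macrophages and B cells, was at 45.0 and 5.31 FPKM in type I ECs, 13.9 and 5.83 in type II ECs, and 61.7 and 19.0 in type III ECs. Unlike Ctsl, it was higher in replicate 1 of type I ECs than in replicate 2 of type III ECs. Ctsd, an aspartic protease of lysosomes, was at 207 and 109 FPKM in type I and 381 and 293 in type III ECs (limma difference 1.15, adjusted p 0.0979). Ifi30, the thiol reductase GILT, was at 40.5 and 8.52 FPKM and at 61.2 and 21.9 FPKM in the same 2 subsets.

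The other genes of the class II region were low. H2-DMb2 was at 13.7 and 2.19 FPKM in type I ECs, 2.94 and 3.71 in type II ECs and 20.2 and 4.87 in type III ECs. H2-Oa and H2-Ob, the chains of H2-O, which restrains H2-M in B cells and some DCs, ran from 0.64 to 5.02 and from 0.44 to 3.43 FPKM, and H2-Eb2 from 0.08 to 2.38. H2-Oa and H2-Eb2 rested on as little as 1 estimated fragment in a library. The median of the 4 tested was 0.55, and limma called none and gave 0 an unadjusted p under 0.05. Limma called 4.14% of all genes tested and gave 14.1% such a p.

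Upstream of Ciita, the 7 genes of the interferon gamma response had a median difference of 0.32 between type III and type I ECs. None was called by limma, where 4.14% of all genes tested were. An unadjusted p under 0.05 was found for 2 of them (Jak1 and Jak2), as for 14.1% of all genes tested. Ifngr1, the ligand-binding receptor chain, was between 76.0 and 126 FPKM in all 6 libraries. Irf1, a transcription factor that acts at a Ciita promoter, was at 364 and 248 FPKM in type I ECs, 317 and 250 in type II ECs, and 252 and 211 in type III ECs, so the order of its means was opposite to that of Ciita (limma difference -0.38, adjusted p 0.64). Jak1, a kinase of the receptor, was at 57.9 and 44.4 FPKM in type I and 102 and 86.8 in type III ECs (0.88, limma adjusted p 0.0979). These did not overlap, where 20.7% of the genes tested had both type III libraries above both type I libraries.

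The 7 genes of the promoter assembly, Rfx5, Rfxap, Rfxank, Creb1, Nfya, Nfyb and Nfyc, were between 1.16 and 19.7 FPKM, with a median difference of 0.07, none called by limma and 0 at an unadjusted p under 0.05. Limma called 4.14% of all genes tested and gave 14.1% such a p. Of the surface ligands that accompany presentation, Cd86 was at 3.13 and 0.44 FPKM in type I ECs, 2.16 and 0.35 in type II ECs, and 8.20 and 1.55 in type III ECs. Cd80 was listed at 0 in replicate 2 of type I and replicate 1 of type II ECs and reached 3.58 FPKM in replicate 1 of type III ECs. Cd274 (PD-L1) stayed between 10.98 and 24.1 FPKM. None of the 4 ligands tested was called by limma or had an unadjusted p under 0.05, nor did either of the ubiquitin ligases that take class II off the surface, March1 and March8. The shares of all genes tested are those given above.

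**Figure D4:**
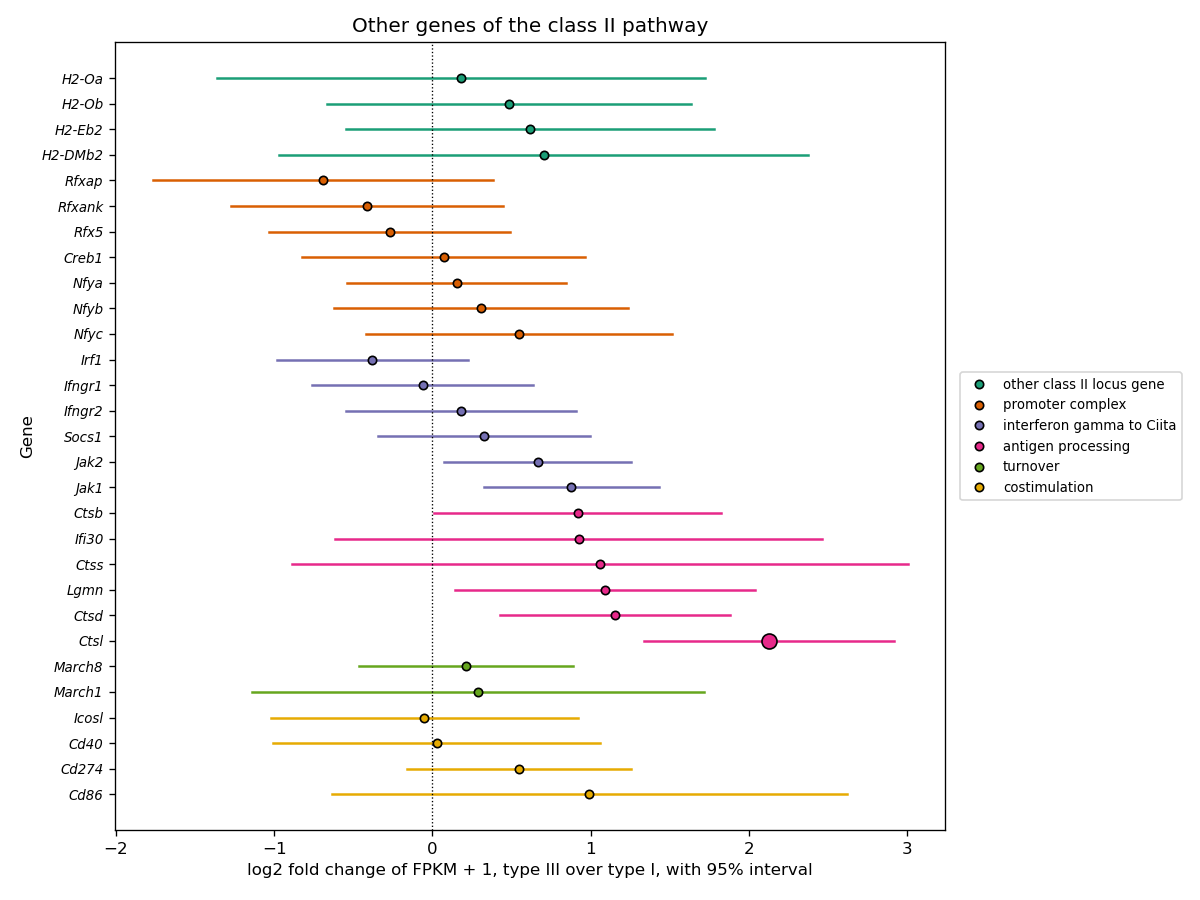
Difference between type III and type I ECs (log2 fold change of FPKM + 1, with its 95% interval) for the tested genes of the wider class II pathway, less 1 that is not reported here, coloured by role. The large point, Ctsl at 2.13, is the gene called by limma, and the 6 antigen processing genes lie between 0.92 and 2.13.

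Over the 6 libraries, the genes whose log2(FPKM + 1) was most like the mean of Cd74, H2-Aa, H2-Ab1 and H2-Eb1 were Tor1aip1 (Pearson r = 0.998), Nap1l4, Cd164, Arhgdib, Ppp3cb, Impdh2, Sec11c, Stxbp3a, Rpl14 and Srp72 (r = 0.994). These 10 came from 6653 genes with a mean of at least 5 FPKM, of which 681 had an r above 0.9 and the median r was 0.53. The 6 points share library depth and scale, so a high r describes the order of libraries. Of the other class II genes, H2-DMa had an r of 0.89, Ciita 0.84 and H2-DMb1 0.83. Ptprc had an r of 0.97, Itgax 0.89, Irf8 0.89, Ctsl 0.84 and Pecam1 0.88, and Zbtb46 had an r of -0.67.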

How the data were processed

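Reads of the 6 libraries, prepared with the NEBNext Ultra kit from RNeasy Plus Micro RNA, were aligned to mm9 and quantified by the authors. The submitters' processing notes name CASAVA 1.8, TopHat2 2.0.10, Cufflinks 2.1.1 and Cuffdiff. The gene annotation behind the values is not given in the sources used here. The deposited values are FPKM per gene and library with the bounds of their 95% intervals, not scaled between libraries and not pooled. No counts were given: fragments per gene were estimated from the interval width as if it held counting error alone, so they are approximate. Subsets were taken from the sample labels.

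Genes at 1 FPKM or more in 2 or more libraries were tested on log2(FPKM + 1) with limma 3.58.1 in R 4.3.3 (1 mean per subset, trend on mean expression, Benjamini-Hochberg over all genes tested, threshold 0.05). The pseudocount understates differences of low genes, and limma weighs genes by spread, not depth. The procedure was tested on simulated data with changes larger than those of the class II genes. The simulated spread between replicates was capped below that of the chain genes. The simulation therefore does not show whether differences like theirs would be found. Named genes were the members, the pathway list, the marker lists and the 10 genes most correlated with the 4 chain genes. The members and lists were chosen with earlier results of these data known. March1 and March8, whose symbols had turned into dates in the tables, were matched by position to GENCODE M1 on the same assembly. Start positions were made 1-based. Promoter windows are RefSeq's on GRCm38.p6. Alternatives tried were another pseudocount, other filters and scalings, the replicate number as a block, no trend, only the libraries compared, and each replicate left out. The block without the trend was added after the data had been seen. Single values of 2 listed genes are not reported here.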

Additional observations from a re-analysis of the deposited data

How the results depend on the processing

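The number of class II genes called stayed at 0 of 7 in every comparison with another pseudocount, other filters, 3 other scalings, no trend, only the 4 libraries compared, or any 1 library left out. With the replicate number as a block, limma called 4 of 7 between type III and type I ECs (adjusted p 0.0135 for Cd74, 0.00888 for H2-Aa, 0.0114 for H2-Ab1 and 0.00342 for H2-Eb1) and 1 between type III and type II ECs (H2-Eb1, 0.0267), and 1 and 0 with the block and no trend (H2-Eb1, 0.0286, an alternative chosen after seeing the data). It called 0 of 7 between type II and type I ECs. With the block, all genes called numbered 971, 183 and 229 in the comparisons of type III with type I, type II with type I, and type III with type II ECs, against 485, 46 and 26 without it, and 662, 15 and 35 with the block and no trend. The deviations of same-numbered libraries from their subset means correlated across genes at 0.20, 0.31 and 0.18, a hint from the data only, since the libraries share a number and no stated mouse or day.

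Over all genes, testing without a filter gave 317, 12 and 0 calls in that order of comparisons, against 485, 46 and 26. In the other two comparisons, quantile normalization gave 103 and 90, equal summed FPKM 102 and 126, median-of-ratios scaling 97 and 85, no trend 15 and 10, and only the 4 libraries compared 29 and 7. In the first, 245 genes were higher and 240 lower as deposited, and 308 and 406 with equal summed FPKM, 313 and 381 after quantile normalization, 320 and 378 with median-of-ratios scaling. In the second the split was 38 to 8 as deposited and 74 to 28, 73 to 30 and 68 to 29 in that order, and in the last 11 to 15 as deposited and 29 to 97, 22 to 68 and 23 to 62. With 1 library left out, where a lone library is assumed to vary like the others, the first count ran from 209 to 404, the second from 12 to 33 and the last from 2 to 14. The first moved by over 1.5 times without replicate 1 (209) or 2 (219) of type III and without replicate 2 of type I ECs (249). The second did so without replicate 2 of type I (17), replicates 1 (24) and 2 (12) of type II and replicates 1 (29) and 2 (28) of type III ECs, and the last comparison did so without any 1 library. The cause was not tested.

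The class II differences between type III and type I ECs kept their direction in every alternative. With 1 library left out, Cd74 ran from 0.52 without replicate 2 of type I ECs to 2.13 without replicate 1 of the same subset, and its smallest adjusted p among these fits was 0.0686. Between type II and type I ECs, leaving out replicate 2 of type I ECs turned Cd74 to -0.44, H2-Aa to -0.53, H2-Ab1 to -0.65, H2-Eb1 to -0.69 and H2-DMb1 to -0.31 (highest values 1.18, 1.29, 0.93, 1.11 and 1.13, each without replicate 1 of type I ECs), and leaving out replicate 1 of type II ECs turned H2-Ab1 to -0.19 and H2-Eb1 to -0.29. Between type III and type II ECs, H2-DMa turned to -0.084 without replicate 2 of type II ECs and to -0.041 without replicate 1 of type III ECs, with a highest value of 0.53. Of the log2 ratios within a replicate number, equal summed FPKM moved Cd74 to 1.24, H2-Aa to 1.37, H2-Ab1 to 1.15 and H2-DMa to 0.72 in type III over type I ECs within number 2. It moved Cd74 to 0.047, H2-Aa to 0.051, H2-Eb1 to 0.0061, H2-DMa to 0.74 and Ciita to 0.081 in type II over type I ECs within number 1. In type III over type II ECs it moved H2-DMa to -0.0051 and 0.065 within numbers 1 and 2, and H2-DMb1 to -0.14 within number 2. A pseudocount of 0.1 moved H2-DMa within number 2 to 1.10 in type III and to 0.80 in type II over type I ECs. Ciita had no value under a filter of a mean FPKM of at least 5.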
